A study of Mus musculus with 6 samples.

Results

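The actin isoforms and the alpha-actinins were followed in bulk RNA-Seq of mouse gastrocnemius and plantaris (GP) muscle. These 10 genes, found by symbol among the 24421 genes of the count tables, are the 6 actins Acta1, Actc1, Acta2, Actg2, Actb and Actg1 and the 4 alpha-actinins Actn2, Actn3, Actn1 and Actn4. All 10 were among the 14180 genes that passed edgeR's expression filter. The study deleted Net39, which encodes an inner nuclear membrane protein of muscle, in adult mice to learn what its loss does to muscle. The labels name 3 libraries as Ctrl (Net39 fl/fl, without Cre) and 3 as cKO (HSACreERT2;Net39 fl/fl), an assignment that the counts of Net39 itself went against, as given below. All mice were male, on the B6C3F1 strain background, 5 months old and 3 months past tamoxifen, so both groups carried the floxed alleles and had received tamoxifen. The Cre-ERT2 transgene is driven by the human skeletal actin promoter, which acts in skeletal muscle fibres, and effects of the transgene and of the deletion cannot be told apart because mice of the control genotype lack it.

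Actin filaments of the sarcomere slide past myosin to shorten the fibre, and alpha-actinin crosslinks filaments of neighbouring sarcomeres at the Z-disc. Acta1 encodes the actin of adult skeletal muscle and Actc1 that of heart and of developing muscle, Acta2 and Actg2 the smooth muscle actins, and Actb and Actg1 the cytoplasmic actins of all cells. Actn2 is made in all skeletal fibres and in heart, Actn3 in fast fibres only, and Actn1 and Actn4 crosslink actin outside the sarcomere.

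The targeted gene went against the labels. Net39, listed in the tables as Ppapdc3, had 310, 321 and 217 counts in the Ctrl-labelled libraries and 5365, 4340 and 6080 counts in the cKO-labelled ones. Its log2 fold change was 4.22 (SE 0.17, adjusted p = 0.000161, edgeR). Counts were summed over each gene, so the floxed first exon could not be told from the rest. The groups are therefore named by their labels throughout, and "higher" and "lower" mean higher and lower in the cKO-labelled libraries, those with high Net39. Whether labels or files were exchanged between the groups was not tested, and an exchange would turn every direction given here. Totals were 33860001 to 38201728 counts in the Ctrl-labelled libraries and 39191239 to 48839910 in the cKO-labelled ones. Levels are given as CPM, counts relative to the library's total after scaling with edgeR's TMM factors, as mean ± SD of 3 libraries. Fold changes are log2 of labelled cKO over labelled Ctrl with the SE of edgeR's quasi-likelihood fit. Adjusted p covers all genes tested. The libraries came from separate mice by their labels.

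The bases before the RefSeq starts of actin genes are shown because the CArG box, the binding site of serum response factor (SRF), is a known element of actin promoters. RefSeq sequence (GRCm38.p6) was at hand for 7 of the 10 members, and the set of upstream sequences used here held no entry for Actb, Actg2 and Actn3. The 250 bases before the RefSeq start were searched on both strands for CC, 6 bases that are A or T, and GG. Of the 7 members, 3 held that box, starting 73 bases before the start in Acta1, 47 in Actc1 and 90 in Actg1, and 1.467% of 32851 mouse promoter windows of the same length held one. With 1 of the 6 middle bases allowed to be G or C, 4 of the 7 held a match, namely these 3 and Acta2, against 8.593% of windows. The match is the same on both strands because the pattern is its own reverse complement. The RefSeq start lay downstream of the start of the GENCODE gene, whose positions are given elsewhere here, in 6 of the 7, all but Acta1. The whole Actc1 window therefore lies within the GENCODE gene, and both Acta2 matches lie past its start and are not upstream of it. The 3 actins with a strict box and Actn2, the member that fell most, are printed below up to the next annotated exon. They run 5′ to 3′ on the minus strand. Capitals mark each match to the looser pattern, which allows 1 G or C and includes the strict box.
Acta1, chr8:123894776-123895025: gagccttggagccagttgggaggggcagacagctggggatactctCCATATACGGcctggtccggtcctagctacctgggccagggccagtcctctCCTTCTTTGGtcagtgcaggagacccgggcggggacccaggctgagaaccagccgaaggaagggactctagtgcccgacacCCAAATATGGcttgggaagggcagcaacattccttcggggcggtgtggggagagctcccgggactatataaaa
Actc1, chr2:114052888-114053125: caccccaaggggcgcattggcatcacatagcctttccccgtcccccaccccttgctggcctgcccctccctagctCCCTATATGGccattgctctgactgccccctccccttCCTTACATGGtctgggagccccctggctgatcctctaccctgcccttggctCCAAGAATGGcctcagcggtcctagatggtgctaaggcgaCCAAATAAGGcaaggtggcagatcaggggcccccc
Actg1, chr11:120348543-120348745: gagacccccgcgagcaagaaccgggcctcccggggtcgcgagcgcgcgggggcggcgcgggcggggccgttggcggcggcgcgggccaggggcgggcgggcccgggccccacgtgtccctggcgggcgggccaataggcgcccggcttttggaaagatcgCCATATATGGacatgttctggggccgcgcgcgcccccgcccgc
Actn2, chr13:12340761-12340982: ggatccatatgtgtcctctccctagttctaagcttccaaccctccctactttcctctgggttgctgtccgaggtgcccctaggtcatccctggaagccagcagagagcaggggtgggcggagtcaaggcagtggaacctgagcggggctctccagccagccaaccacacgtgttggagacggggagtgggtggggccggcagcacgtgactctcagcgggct
Acta1 held 3 matches to the looser pattern, Actc1 held 4 and Actg1 held 1 in these stretches. The strict box was the last or only match printed for each of these genes. No match to either pattern was found in the windows of Actn2, Actn1 or Actn4. The E-box CANNTG, the site of the myogenic regulatory factors, was present in 6 of the 7, all but Actc1, and in 66.22% of all windows. The MCAT element CATTCC stood in 3 of the 7 (Acta1, Acta2 and Actn4) against 12.64% of windows, and the GC box GGGCGG in 5 of the 7 against 32.74%. A MEF2 box was found in 0 of the 7 windows and in 2.919% of all windows. A match describes these letters and not occupancy, which was not measured in this muscle.

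Levels between genes were compared as CPM per kb of transcript. In the Ctrl-labelled libraries, Acta1 stood at 21936 CPM per kb on average, followed by Actn3 (1537), Actn2 (1124), Actb (173), Actc1 (168), Actg1 (102), Acta2 (41.7), Actn4 (25.6), Actn1 (5.42) and Actg2 (0.934). The cKO-labelled libraries gave the same order of means, from Acta1 at 25033 CPM per kb to Actg2 at 0.462. In the Ctrl-labelled libraries the ranges of Actn3 and Actn2 overlapped, as did those of Actb and Actc1, and the other neighbours in the order did not overlap. In the cKO-labelled libraries, Actn3 and Actn2 no longer overlapped, while Actc1 spread over the levels of Actb, Actg1 and Acta2. Acta1 held 97.4% to 98.1% of the summed level of the 6 actins in the Ctrl-labelled libraries and 98.3% to 98.8% in the cKO-labelled ones. By counts, Acta1 alone took 3.24% to 3.63% of a whole library labelled Ctrl and 2.95% to 3.51% of a library labelled cKO.

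**Figure D1:**
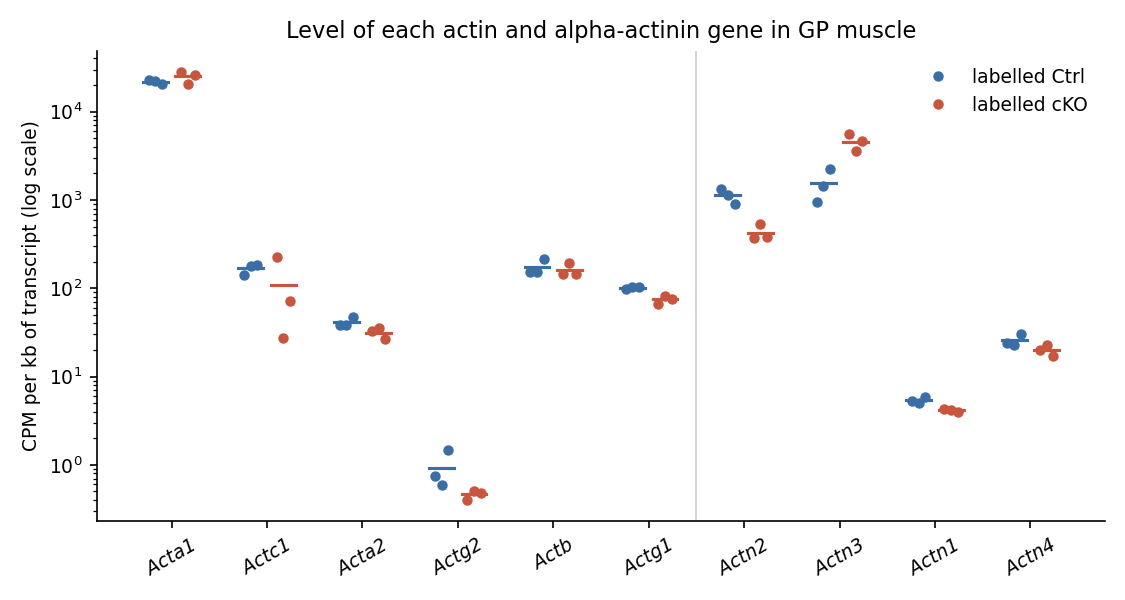
Level of each member as CPM per kb of transcript (log axis), with actins on the left and alpha-actinins on the right. Each point is a library labelled Ctrl (blue) or cKO (red), lines are group means, and Actn2 and Actn3 are the pair whose order was unsettled in the Ctrl-labelled libraries and separate in the cKO-labelled ones.

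Of the 10 members, 1 rose (Actn3) and 3 fell (Actn2, Actg1 and Actn1) at an adjusted p under 0.05 in edgeR. Over all genes tested, 12.6% rose and 11.8% fell by the same rule. With a fold change over 2 as well, Actn3 was the 1 member that rose and Actn2 the 1 that fell, where 2.13% of all genes rose and 3.92% fell. The ranges of the groups did not overlap for 7 members, 1 higher and 6 lower, and for 43.9% of all genes tested. The median log2 fold change was -0.40 over the members and -0.015 over all genes. Scaling by total counts in place of TMM factors moved the median of all genes to -0.27 and the calls over all genes from 1786 higher and 1668 lower to 673 higher and 4074 lower. Relative to the median of all genes, the members kept nearly the same values under both scalings, for example 0.21 and 0.20 for Acta1 and -0.43 and -0.42 for Actg1.

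**Figure D2:**
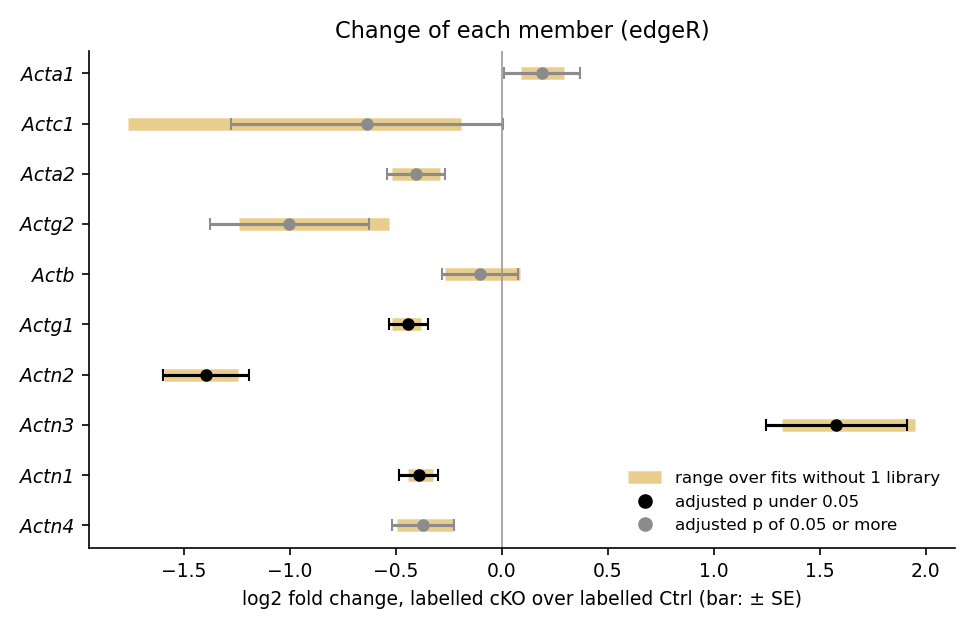
Log2 fold change of each member, labelled cKO over labelled Ctrl, with its SE (thin bars) from edgeR, in black where the adjusted p is under 0.05 and in grey otherwise. Yellow bands span the values from 6 fits that each left out 1 library: Actn2 and Actn3 lie apart from 0 on opposite sides, and the band of Actc1 runs from -1.76 to -0.19.

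The sarcomeric alpha-actinins moved in opposite directions. Actn2 (21 exons, GRCm38 chromosome 13, 12269426 to 12340760) had 4053, 3398 and 2711 CPM in Ctrl-labelled libraries 1, 2 and 3 and 1122, 1590 and 1150 CPM in cKO-labelled libraries 1, 2 and 3. Every library labelled cKO lay below every library labelled Ctrl. The means of 3387 ± 671 and 1288 ± 263 CPM differed by a log2 fold change of -1.40 (SE 0.20, adjusted p = 0.00539, edgeR), a level 2.63-fold lower. Actn2 passed the threshold in all 13 alternative fits, with an adjusted p of at most 0.0287.

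Actn3 (21 exons, chromosome 19, 4861216 to 4877909), whose product is confined to fast fibres and is missing in people with a common null allele, had 2715, 4149 and 6447 CPM in the Ctrl-labelled libraries. The cKO-labelled ones had 16228, 10254 and 13283 CPM. The groups did not overlap, although the Ctrl-labelled libraries themselves spread widely. Actn3 rose by 1.58 on the log2 scale (SE 0.33, adjusted p = 0.0162, edgeR), from 4437 ± 1883 to 13255 ± 2987 CPM, a 2.99-fold higher level. The call was lost, with adjusted p of 0.0516 to 0.0616 in edgeR, when library Ctrl 2, cKO 1 or cKO 3 was left out, and the log2 fold change then stayed between 1.40 and 1.57.

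The ratio of the pair within a library combines their opposite changes, so its fold difference is larger than that of either gene by construction. Actn3 counts per Actn2 count were 0.670, 1.22 and 2.38 in the Ctrl-labelled libraries and 14.5, 6.45 and 11.5 in the cKO-labelled ones. The ratio was 8.21-fold higher in the cKO-labelled libraries, without overlap (p = 0.1 in an exact two-sided permutation test, the minimum for 3 against 3, and 0.30 after adjustment over 6 ratios). Per kb, Actn3 made up 41.1%, 56.0% and 71.3% of the sum of both in the Ctrl-labelled libraries and 93.8%, 87.1% and 92.3% in the cKO-labelled ones. Actn2 was thus the more abundant of the pair in 1 of the 6 libraries, the one labelled Ctrl 1. The sum of both was 2286, 2565 and 3133 CPM per kb in the Ctrl-labelled libraries and 5993, 4080 and 4983 in the cKO-labelled ones. Summed actin exceeded summed alpha-actinin per kb 9.94-, 8.86- and 6.72-fold in the Ctrl-labelled libraries and 4.74-, 5.14- and 5.32-fold in the cKO-labelled ones.

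**Figure D3:**
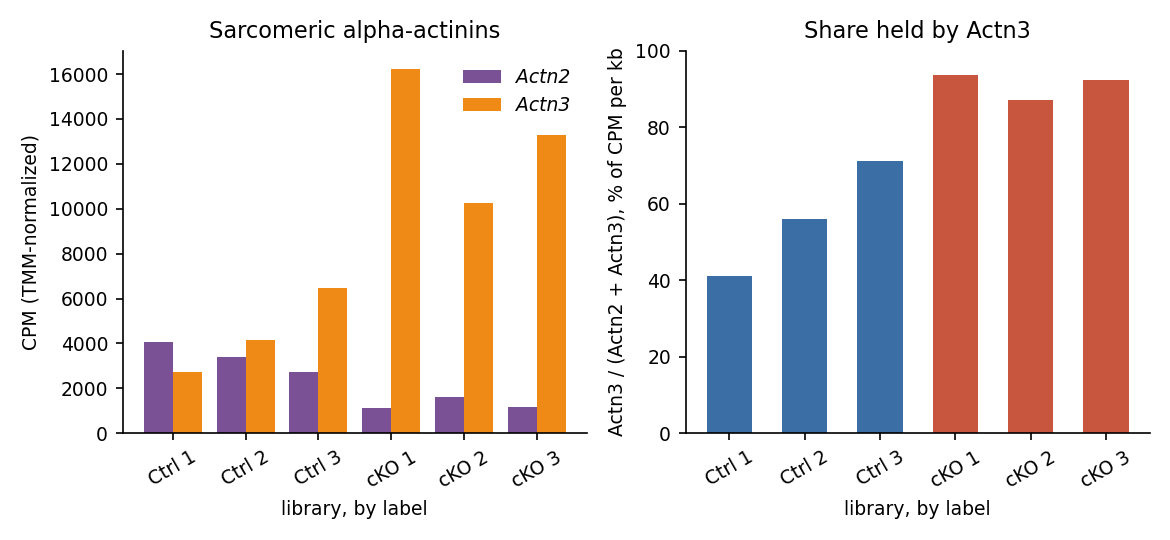
Left, CPM of Actn2 (purple) and Actn3 (orange) in each library. Right, the percent of their summed CPM per kb that was Actn3, in libraries labelled Ctrl (blue) and cKO (red). Each bar is 1 library, and the Actn3 share was 41.1% to 71.3% in the Ctrl-labelled libraries and 87.1% to 93.8% in the cKO-labelled ones.

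Markers of fibre types moved with this pair, and their counts are read against 12.6% of all genes rising and 11.8% falling. Of 8 fast fibre markers, 7 rose and 0 fell, and their summed level went from 60176 to 97853 CPM in the Ctrl-labelled libraries to 147277 to 186093 CPM in the cKO-labelled ones. No markers of type IIa or IIx fibres were listed beside them, so a rise of type IIb alone was not tested. Myh4, the type IIb myosin, had 15349, 24649 and 36565 CPM and then 80134, 57352 and 72862 CPM, which placed the 6 libraries in the same order as Actn3. Of 8 slow fibre markers, 0 rose and 3 fell, and their sum was 8481 to 14598 CPM in the Ctrl-labelled libraries and 446 to 3873 CPM in the cKO-labelled ones. Fewer fibres of a type and less RNA per fibre cannot be told apart in whole muscle, and the part of fibre type in the levels of Actn2 and Actn3 was not tested. Genes whose log2 CPM followed Actn2 most closely over the 6 libraries, among 8050 genes with a mean of at least 10 CPM, were Rps10 (Pearson's r 0.996), Atg13 (0.996) and Khdrbs3 (0.995). For Actn3 they were Dnase1l1 (r 0.999), Abcd2 (0.999) and Ppp3ca (0.999). These are descriptions over 6 points that share the group difference and the scaling.

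The sarcomeric actins did not pass the test. Acta1, the main thin filament gene (7 exons, chromosome 8, 123891769 to 123894751), had 32647, 32533 and 29977 CPM in the Ctrl-labelled libraries and 40531, 30058 and 38007 CPM in the cKO-labelled ones. The groups overlapped, and the log2 fold change of 0.19 (SE 0.18, adjusted p = 0.474, edgeR) became -0.074 with total counts. All 8 other markers of skeletal fibres, Myh4 and Ckm among them, were present, and 6 rose and 0 fell, where 12.6% of all genes rose and 11.8% fell, from a sum of 56530 to 85778 CPM to a sum of 119622 to 162956 CPM. Myh4 and Tnnt3 also stand in the fast fibre list, and Myh4 alone supplied 57352 to 80134 CPM of the latter sum.

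Actc1 (7 exons, chromosome 2, 114047282 to 114053548) had 208, 262 and 273 CPM in the Ctrl-labelled libraries and 331, 40.6 and 106 CPM in the cKO-labelled ones. The cKO-labelled library 1 was the highest of all 6 and the other 2 labelled cKO were the lowest. The highest and lowest libraries differed 8.17-fold within the group labelled cKO and 1.31-fold within the group labelled Ctrl. Its log2 fold change was -0.63 (SE 0.64, adjusted p = 0.504, edgeR). Without the cKO-labelled library 1 it was -1.76 (adjusted p = 0.0424, edgeR), so 1 library decided whether Actc1 passed.

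Actc1 made up 0.621%, 0.784% and 0.886% of the 2 sarcomeric actins per kb in the Ctrl-labelled libraries and 0.796%, 0.132% and 0.274% in the cKO-labelled ones. The log2 ratio of Actc1 to Acta1 was lower by 1.31 in the cKO-labelled libraries, with overlap (exact two-sided permutation test, p = 0.3, adjusted p = 0.36). That difference was -2.00 without the cKO-labelled library 1 and -0.70 without the cKO-labelled library 2. Myh3, the embryonic myosin of regenerating fibres, had 159, 202 and 171 CPM in the Ctrl-labelled libraries and 6.21, 21.5 and 9.68 CPM in the cKO-labelled ones, so the cKO-labelled library 1 had the lowest Myh3 and the highest Actc1. Of 9 tested markers of regenerating or immature fibres, 1 rose (Myh8) and 3 fell (Myh3, Myog and Ncam1), where 12.6% of all genes rose and 11.8% fell, with a sum of 297 to 368 CPM in the Ctrl-labelled libraries and 183 to 213 CPM in the cKO-labelled ones. Myh7, the slow myosin that muscle shares with heart, had 3676, 1723 and 2219 CPM and then 494, 974 and 75.3 CPM, in an order unlike that of Actc1. The part of immature, slow or cardiac-type fibres in the Actc1 level was not tested.

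The cytoplasmic actins differed from each other in their call. Actg1 (chromosome 11, 120345690 to 120348542) had 194, 202 and 199 CPM in the Ctrl-labelled libraries and 131, 159 and 148 CPM in the cKO-labelled ones, without overlap. It fell by 0.44 on the log2 scale (SE 0.09, adjusted p = 0.0155, edgeR), from 198 ± 4.16 to 146 ± 13.95 CPM. The adjusted p was 0.0573 without the Ctrl-labelled library 2 and 0.0527 without the one labelled cKO 3 in edgeR. Counting of Actg1 is uncertain, because 54.5% of the 75-base windows of its transcript also occur in transcripts of 10 other genes, mostly processed pseudogenes such as Gm12715 and Gm8399, and the handling of reads with several matches is not given in the sources used here.

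Actb (chromosome 5, 142903115 to 142906754) had 292, 291 and 411 CPM in the Ctrl-labelled libraries and 280, 371 and 275 CPM in the cKO-labelled ones. The groups overlapped, with the Ctrl-labelled library 3 highest and cKO 2 next, and the log2 fold change was -0.10 (SE 0.18, adjusted p = 0.711, edgeR), or 0.085 without the Ctrl-labelled library 3. The log2 ratio of Actb to Actg1 was higher by 0.35 in the cKO-labelled libraries, with overlap (exact two-sided permutation test, p = 0.2, adjusted p = 0.30), so the different calls of the 2 genes were not shown to be a difference between them. Their coding sequences are 88.6% identical, the highest value among the actins, which ranged from 81.5% upward.

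**Figure D4:**
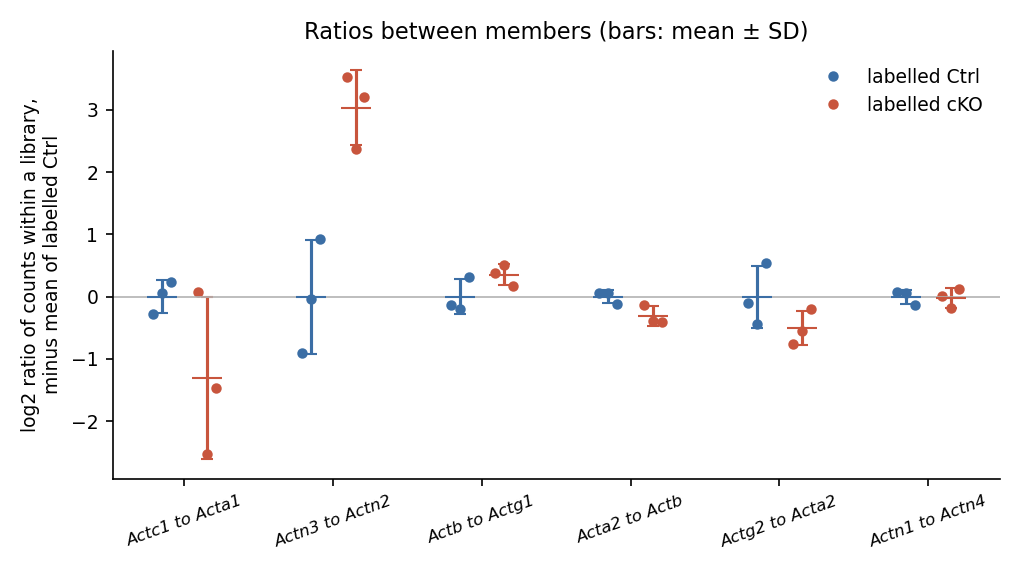
Log2 ratio of the counts of 2 members within a library, minus the mean of the Ctrl-labelled libraries (vertical axis), for 6 pairs. Points are libraries and bars are mean ± SD, and the ratio of Actn3 to Actn2 (3.04 higher in the cKO-labelled libraries) stands beyond the spread of both groups.

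The smooth muscle actins lay lower in every library labelled cKO but did not pass. Acta2 (chromosome 19, 34241090 to 34255590), the actin of vessel walls and of myofibroblasts, had 78.5, 78.7 and 97.4 CPM in the Ctrl-labelled libraries and 66.1, 72.7 and 53.5 CPM in the cKO-labelled ones. The log2 fold change was -0.40 (SE 0.14, adjusted p = 0.072, edgeR), and it passed with total counts (adjusted p = 0.0193) and without the cKO-labelled library 2 (adjusted p = 0.0378). Actg2, the enteric smooth muscle actin (chromosome 6, 83512905 to 83536265), had 39, 33 and 71 counts in the Ctrl-labelled libraries and 19, 26 and 28 counts in the cKO-labelled ones. These are few counts, and the log2 fold change of -1.002 (SE 0.37) had an adjusted p of 0.0925 in edgeR. Without the Ctrl-labelled library 3, which held 71 of the counts, it was -0.53 (adjusted p = 0.206, edgeR).

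Of 10 smooth muscle and pericyte markers, 1 rose (Abcc9) and 2 fell (Myh11 and Cspg4), counts near what 12.6% of all genes rising and 11.8% falling would give. Their summed level was 860 to 912 CPM in the Ctrl-labelled libraries and 870 to 925 CPM in the cKO-labelled ones. Abcc9, the 1 marker called higher, carried much of that sum. Without it, a choice made after its values were seen, the other 9 markers summed to 601 to 607 CPM and 502 to 542 CPM. Of their 9 log2 fold changes 8 were negative, with a median of -0.21, against -0.17 for all 10 markers. Myh11, the smooth muscle myosin, fell by 0.57 on the log2 scale (adjusted p = 0.0196, edgeR). The part of smooth muscle cells in the levels of Acta2 and Actg2 was not tested. The log2 ratio of Acta2 to Actb was lower by 0.31 in the cKO-labelled libraries without overlap (exact two-sided permutation test, p = 0.1, adjusted p = 0.30).

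The non-muscle alpha-actinins were low, and every cKO-labelled library lay below every Ctrl-labelled one for both. Actn1 (chromosome 12, 80167547 to 80260371), which crosslinks stress fibres at focal adhesions, had 19.8, 18.8 and 22.1 CPM in the Ctrl-labelled libraries and 15.8, 15.8 and 14.7 CPM in the cKO-labelled ones. It fell by 0.39 on the log2 scale (SE 0.09, adjusted p = 0.0225, edgeR), a change that no longer passed without the Ctrl-labelled library 1 (0.0685), cKO 1 (0.0529) or cKO 3 (0.0751). Of its 75-base windows, 8.44% were shared with antisense genes (Gm47766 and Gm47767), and the use of strand in counting is not given in the sources used here.

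Actn4 (chromosome 7, 28893248 to 28962340), the alpha-actinin of podocytes and motile cells, had 83.9, 80.1 and 107 CPM in the Ctrl-labelled libraries and 69.9, 79.8 and 59.9 CPM in the cKO-labelled ones. The groups came close without overlapping, and the log2 fold change was -0.37 (SE 0.15, adjusted p = 0.107, edgeR). An exon of Actn4 overlaps Capn12 on the opposite strand. The ratio of Actn1 to Actn4 differed by -0.02 on the log2 scale (exact two-sided permutation test, p = 0.9). Both genes together made up 1.26%, 1.07% and 1.15% of the 4 alpha-actinins per kb in the Ctrl-labelled libraries and 0.400%, 0.653% and 0.418% in the cKO-labelled ones.

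Markers of cells between the fibres are read against the 11.8% of all genes that fell. Of 11 immune markers, 7 fell and 0 rose, with sums of 188 to 214 CPM in the Ctrl-labelled libraries and 86.0 to 120 CPM in the cKO-labelled ones. Of 9 fibroblast and progenitor markers 4 fell, with sums of 1294 to 1517 and 907 to 1461 CPM, and 0 rose. Of 8 endothelial markers 1 fell, a share near that of all genes, with sums of 446 to 459 and 404 to 434 CPM. These cells express Actb, Actg1, Actn1 and Actn4, and their part in the levels of those genes was not tested. Of the heart's markers Myh6 was the only abundant one, at 659, 323 and 177 CPM and then 39.5, 71.3 and 0.25 CPM, and 3 of the 6 were too low to be tested.

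Genes that work with these proteins were taken as 5 lists, and their counts from all 6 libraries read against 12.6% of all genes rising and 11.8% falling. Fits without 1 library tested 14361 to 14453 genes. Over all genes, 766 rose and 809 fell without Ctrl 1, and 873 and 947 without Ctrl 2. The numbers were 1703 and 1529 without Ctrl 3, and 896 and 893 without cKO 1. They were 1777 and 1808 without cKO 2, and 772 and 788 without cKO 3, against 1786 and 1668 with all 6 libraries. Of 22 genes of thin filament assembly, 4 rose and 6 fell, with a median log2 fold change of -0.01. Without Ctrl-labelled library 1 or cKO-labelled library 1, 2 rose, and without Ctrl-labelled library 2, 3 fell. Lmod2, which lengthens thin filaments at their pointed ends, fell (-1.66, SE 0.24, adjusted p = 0.00509, edgeR), as did Nebl, at under 1 CPM (-1.92, SE 0.47, adjusted p = 0.0268), and Cap1, a cyclase-associated actin recycling protein (-0.62, SE 0.08, adjusted p = 0.00368). Tmod4, a pointed-end cap of skeletal muscle, rose (0.75, SE 0.10, adjusted p = 0.00395, edgeR).

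Of 20 partners of alpha-actinin at the Z-disc, 3 rose and 6 fell, with a median of -0.14, and the counts were 6 and 5 without the cKO-labelled library 2 and 3 and 3 without the cKO-labelled library 3. Csrp3, the muscle LIM protein, had 465, 443 and 392 CPM in the Ctrl-labelled libraries and 89.2, 65.4 and 56.8 CPM in the cKO-labelled ones, and fell by 2.62 on the log2 scale (SE 0.18, adjusted p = 0.000627, edgeR). Myoz2, the calsarcin of slow fibres and heart, had 791, 580 and 480 CPM and then 123, 207 and 84.8 CPM, and fell by 2.16 (SE 0.34, adjusted p = 0.00700, edgeR). Pdlim1 fell by 1.57 (SE 0.32, adjusted p = 0.0149, edgeR), whereas Pdlim7, also a PDZ and LIM domain protein, rose (0.79, SE 0.12, adjusted p = 0.00623). Myoz1, the calsarcin of fast fibres, was named after its values were seen and rose by 0.97 (SE 0.17, adjusted p = 0.00858, edgeR), while Myoz3 had a log2 fold change of -0.11 (adjusted p = 0.576, edgeR).

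Of 19 tested genes of the SRF axis and its cytoskeletal targets, 0 rose and 7 fell, with a median of -0.32. By contrast 1 rose without the Ctrl-labelled library 3 or the cKO-labelled library 2, and 4 fell without the Ctrl-labelled library 1. Fhl1, a LIM protein of the sarcomere, had 6159, 5512 and 4850 CPM in the Ctrl-labelled libraries and 1355, 2036 and 1461 CPM in the cKO-labelled ones, and fell by 1.77 (SE 0.19, adjusted p = 0.00261, edgeR). Fhl2 (-2.03), Abra, which encodes the SRF activator STARS (-1.39), the smooth muscle calponin Cnn1 (-1.33) and Tagln2 (-0.83) fell as well, with adjusted p of 0.0256, 0.00442, 0.00336 and 0.00404 in edgeR. Srf itself had a log2 fold change of 0.08 (adjusted p = 0.634, edgeR). Among the actins searched, Acta1, Actc1 and Actg1 held a strict CArG box. Their log2 fold changes were 0.19, -0.63 and -0.44, of which that of Actg1 passed. Actb and Actg2 had no sequence to search.

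Of 20 genes of cytoplasmic actin turnover, 2 rose and 5 fell, with a median of -0.23. Leaving out library Ctrl 1, Ctrl 2 or cKO 3 left 1 higher and 2 lower, and leaving out cKO 1 left 3 lower. Wdr1, which aids cofilin in taking filaments apart, fell (-1.13, SE 0.15, adjusted p = 0.00454, edgeR), as did the Arp2/3 subunit Arpc1a (-0.39, SE 0.07, adjusted p = 0.00962), while profilin 2, Pfn2, rose (0.58, SE 0.09, adjusted p = 0.00684). Of 16 adhesion proteins that bind non-muscle alpha-actinin, 1 rose and 5 fell, with a median of -0.12. Here 0 rose without any one of the Ctrl libraries or cKO 3, and 2 fell without Ctrl 1 and 3 without cKO 1 or cKO 3. Icam1 (-0.95, SE 0.12, adjusted p = 0.00391, edgeR), cortactin, Cttn (-0.43, SE 0.08, adjusted p = 0.0124), and zyxin, Zyx (-0.46, SE 0.10, adjusted p = 0.0169), which the SRF list also holds, fell. With total counts the lists had 2, 3, 0, 1 and 0 genes higher and 11, 9, 10, 11 and 9 lower, in the order given here, where 4.75% of all genes were higher and 28.7% lower.

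**Figure D5:**
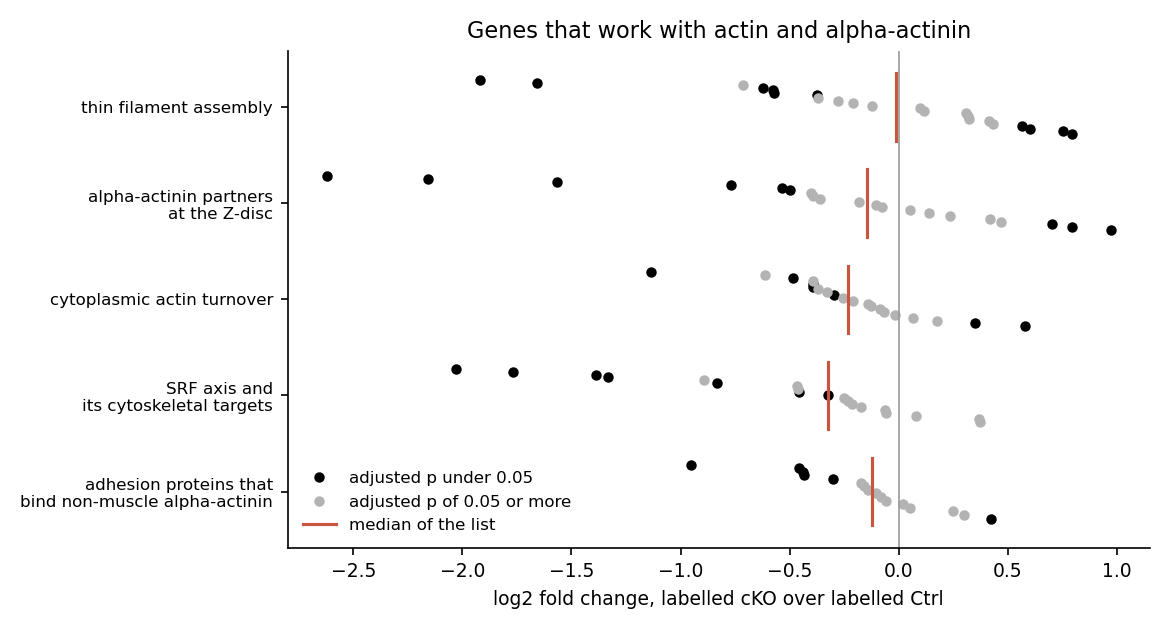
Log2 fold change, labelled cKO over labelled Ctrl, of each tested gene of the 5 lists, sorted within a list. Black points passed an adjusted p under 0.05 in edgeR, grey points did not, and red lines are list medians, which lie between -0.32 and -0.01.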

How the data were processed

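RNA of GP muscle from 6 mice was made into mRNA libraries with the KAPA mRNA Hyperprep kit. Per the labels and the study's methods, the authors trimmed reads with Trimmomatic (version 0.39), aligned them to mm10 with HISAT2 (version 2.1.0) and counted them with featureCounts (version 1.6.2). The authors deposited raw counts per gene, without normalization. Totals of 33860001 to 48839910 counts per library limit precision mainly for Actg2. The annotation, the use of strand and the handling of reads with several matches are not given in the sources used here.

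Groups were taken from the labels. The test was run with edgeR 4.0.16 in R 4.3.3 (TMM, filterByExpr, glmQLFit, glmQLFTest, Benjamini-Hochberg over 14180 genes). SE was derived from the F statistic. CPM uses TMM factors, and log2 CPM for likeness a prior count of 2. The 6 ratios between members were set side by side with exact permutation tests (two-sided). The study used DESeq with a fold change over 2 and an adjusted p under 0.05, and DESeq2 1.42.0 was an alternative. On simulated data for this comparison, edgeR recovered 151 of 200 changed genes (14031 tested) with 10 other calls, and DESeq2 recovered 167 (13904 tested) with 45.

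The members, the 5 lists of working partners and the marker lists were chosen with earlier results of these data known. Named genes are the members, Net39, from each list the 3 with the smallest p and those called with a fold change over 2, and for Actn2 and Actn3 the 3 most correlated genes. Markers are named where a member is set beside them. Gene positions, exons and transcript lengths come from GENCODE M21 (GRCm38), for the transcript with the longest coding sequence. Upstream sequences come from RefSeq (GRCm38.p6). Coding sequences were aligned with Biopython 1.88. Alternatives were total counts or DESeq2's size factors as scaling, a filter of 10 counts per library or none, a robust fit, DESeq2's Wald test, a block for mouse number, single libraries left out and the fold change rule.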

Additional observations from a re-analysis of the deposited data

How the results depend on the processing

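Directions of the members held in the alternatives tried, except that Acta1 turned to -0.074 with total counts and Actb to 0.085 without the library labelled Ctrl 3 (-0.27 to 0.085 over libraries left out). Neither passed in either setting. DESeq2's size factors, its Wald test, the robust fit, and a filter of 10 counts per library or none each called 1 member higher and 3 lower, as edgeR did. Over all genes these called 1714 (no filter) to 2092 (Wald test) higher and 1521 (no filter) to 1830 (Wald test) lower. With total counts 6 members were lower, adding Acta2, Actg2 and Actn4, and over all genes 673 were higher and 4074 lower, or 14.2% higher among the called against 51.7% with TMM. This scaling shifts all genes together. With a fold change over 2, 1 member was lower, and 302 genes were higher and 556 lower. Leaving out 1 library gave 0 to 1 members higher and 1 to 4 lower, and 766 to 1777 genes higher and 788 to 1808 lower over all genes. Those fits hold fewer samples. Of the 13 alternatives, Actn2 passed in 13, Actg1 in 11, Actn3 in 10 and Actn1 in 9. The log2 ratio of Actn1 to Actn4 changed sign with single libraries left out (-0.09 to 0.07), and the others kept theirs: Actn3 to Actn2 2.59 to 3.50, Actc1 to Acta1 -2.00 to -0.70, Actb to Actg1 0.25 to 0.51, Acta2 to Actb -0.40 to -0.26 and Actg2 to Acta2 -0.72 (without Ctrl 2) to -0.23 (without Ctrl 3). Over these fits 2 to 6 genes were higher and 3 to 6 lower for thin filament assembly, 3 to 6 and 3 to 5 for Z-disc partners, 0 to 1 and 4 to 8 for the SRF axis, 1 to 2 and 2 to 7 for actin turnover and 0 to 1 and 2 to 5 for adhesion. Mouse numbers did not pair the libraries, since same-numbered libraries deviated with correlations of 0.0835, -0.215 and -0.00201. With the mouse number as a replicate block, 927 genes were higher and 972 lower, and Actn1 had a log2 fold change of -0.39 with an adjusted p of 0.0733 in edgeR. The cause was not tested. Depth limits Actg2 most, at 19 to 71 counts per library.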

Other observations

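Counts of a member were divided by those of a myosin or a marker in the same library for 8 pairs picked after the values were seen, with no test. Actn3 to Myh4 was 0.177, 0.168 and 0.176 in the libraries labelled Ctrl and 0.203, 0.179 and 0.182 in those labelled cKO. The ratio thus varied 1.20-fold over libraries in which Actn3 itself varied 5.98-fold. Actn2 had no such companion in the slow myosin, since Actn2 to Myh7 was 1.10, 1.97 and 1.22 and then 2.27, 1.63 and 15.3. Actb to Myh9, the non-muscle myosin, varied 1.22-fold while Actb varied 1.49-fold. Acta2 to Myh11 was 0.722, 0.739 and 0.981 in the libraries labelled Ctrl and 0.787, 1.06 and 0.892 in those labelled cKO, so these overlapped, and it varied 1.47-fold. Acta2 to Rgs5, a pericyte gene, varied 1.68-fold, and Acta2 itself varied 1.82-fold. Acta1 to Des, the muscle intermediate filament gene desmin, varied 1.32-fold and Acta1 itself 1.35-fold. Actc1 varied 8.17-fold itself, 41.1-fold against Myh3 and 33.9-fold against Myh7.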
